A study of Heliconius erato cyrbia and Heliconius erato demophoon with 32 samples.

Results

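The stretch of the Z chromosome around MSTRG.21985 was described, a locus that the study named from its difference between 2 subspecies of the butterfly Heliconius erato. Its members were all loci from MSTRG.21885 to MSTRG.22085 by assembly number, the 100 on each side of MSTRG.21985 and that locus itself. There were 201 of them among 24118 loci in the deposited table. MSTRG.21985 was thus chosen by a readout, its lower count in H. e. cyrbia, and its subspecies values are given without a test. The other 200 were taken for their place alone, and counts of calls between subspecies below are over these.

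RNA came from pupal wings of captive H. e. cyrbia, which has iridescent blue wings, and H. e. demophoon, which lacks iridescence. Animals of each subspecies were taken at 50% or 70% of pupal development, reared at 25°C, with 4 animals in each of these 4 sets. Each of the 16 animals gave 1 library from the anterior hindwing, the androconial region with its own scale type, and 1 from the forewing with the rest of the hindwing, here called the main wing. The 32 libraries so fall into 8 groups of 4, and no group was treated. In cyrbia 2 males and 2 females were sampled at 50% and 4 males at 70%, while in demophoon 1 male and 3 females were sampled at each stage. Subspecies and sex are therefore partly confounded at both stages, and most at 70%, where cyrbia gave males only. Library numbers ran through the 70% libraries first, so that library order and stage cannot be told apart.

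In butterflies, a wing scale is the cuticular extension of a single cell, and bundles of actin take part in forming its lengthwise ridges during pupal life. In iridescent scales, layered ridges reflect light and so give a structural colour. MSTRG.21985 lies on the chromosome where the study mapped the spacing of scale ridges. Butterfly females carry a single Z chromosome and males a pair, and most Z-linked genes of Heliconius are compensated for that difference in dose.

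Of the 201 loci, 99 were tied to a known gene model (annotated loci) and 102 had an assembly ID alone (unannotated loci, transcripts assembled from these reads outside known models). The gene models of 98 annotated members all lay on the Z scaffold Herato2101, from model 268 to model 405, and stepped backwards in 1 of 97 steps from one annotated member to the next. Assembly number thus followed the order of the models, and 6 members joined several models. The files pair none of these IDs with a gene name, so that no function is given for any member. For the same reason, markers of wing tissue could not be checked.

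Library totals ran from 9330883 to 68986011 counts over all loci. Levels are given as CPM, counts scaled to a common library total after normalisation by the trimmed mean of M-values (TMM). The lengths of the loci are not in the table, so that a CPM compares samples for a locus, not loci with each other. Members took between 0.397 and 1.01% of the counts of a library. At 50% the range was 0.397 to 0.569% and at 70% it was 0.528 to 1.01%. Without MSTRG.22015, which alone took 35.0% of the members' counts, these ranges were 0.370 to 0.530% and 0.262 to 0.539%.

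Most members were low. A mean of at least 10 CPM over the 32 libraries was reached by 53 members, 40 of them annotated, and 104 stayed below 1 CPM. The median of the means was 4.78 CPM over annotated and 0.444 CPM over unannotated members. Counts in all 32 libraries were found for 88 members, and 5, all annotated, had a count of 0 throughout. The filter on low counts kept 131 members in the main wing fit, 141 in the anterior hindwing fit and 159 in the fit of all 32 libraries. The ends of the stretch were nearly silent. MSTRG.21885, the first member, reached at most 4 counts in a library, as did MSTRG.22085, the last. Just outside, MSTRG.22086 also reached at most 4 counts, and MSTRG.21884 at most 30.

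At MSTRG.21985 itself, the level in the main wing at 50% was 6.28, 8.83, 6.37 and 3.15 CPM in the 4 cyrbia animals and 11.0, 9.96, 13.8 and 18.7 CPM in the 4 demophoon animals. At 70% it was 10.0, 7.95, 6.42 and 8.17 CPM in cyrbia and 16.4, 16.8, 19.9 and 27.0 CPM in demophoon. All demophoon animals were above all cyrbia animals of their stage. The fitted log2 fold change of cyrbia against demophoon was -1.11 ± 0.29 (SE) at 50% and -1.29 ± 0.29 at 70%. Anterior hindwing libraries came from the same animals and are not independent of these. In them MSTRG.21985 kept the same order. Its means there were 5.69 ± 1.40 CPM (SD, n = 4) in cyrbia and 13.3 ± 4.17 in demophoon at 50%, and 7.43 ± 1.87 and 18.1 ± 4.07 at 70%.

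MSTRG.21985 was not chosen by its stage, region or sex contrasts. Since all of these contrasts share libraries with the subspecies difference it was chosen by, none is independent of its choice. Its level at 70% against 50% differed by 0.40 ± 0.29 on the log2 scale in cyrbia (false discovery rate, FDR, of 0.353) and by 0.59 ± 0.29 in demophoon (FDR = 0.154), and neither passed the threshold of 0.05. Males differed from females by -0.04 ± 0.26 (FDR = 1.00). Across the 16 animals the main wing level was 0.459 to 1.48 times that of the anterior hindwing, with a median of 1.12. Neither stage nor sex was thus called for this locus.

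**Figure D1:**
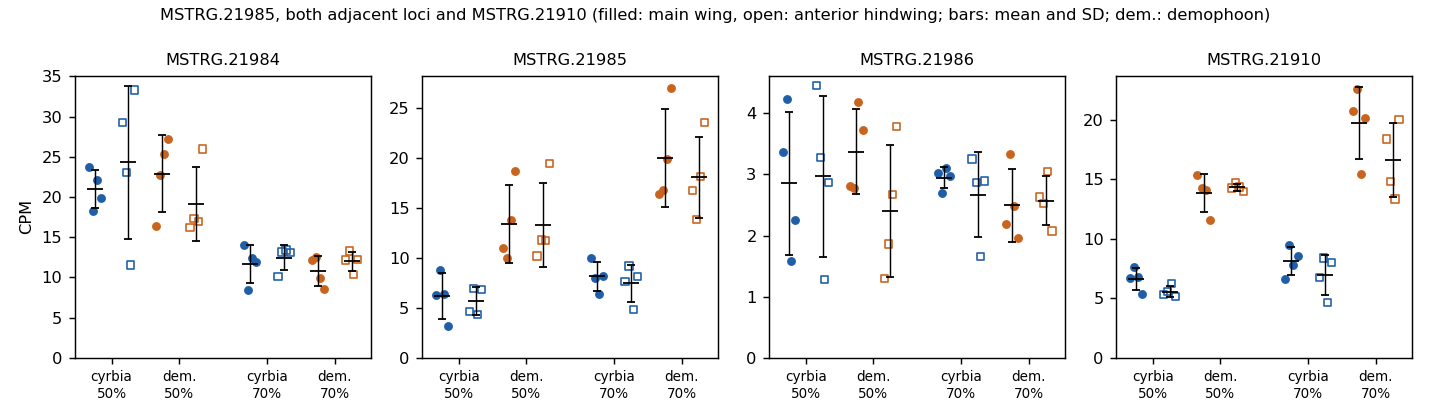
CPM (vertical axis) of MSTRG.21985, its adjacent loci MSTRG.21984 and MSTRG.21986 and the more distant MSTRG.21910 in each of the 32 libraries, by subspecies and stage (horizontal axis). Filled points are main wing libraries, open squares anterior hindwing libraries, and bars the mean ± SD of 4 animals. MSTRG.21985 and MSTRG.21910 share an order of groups, and both adjacent loci overlap between the subspecies.

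The loci on either side of MSTRG.21985 did not share its pattern. MSTRG.21984, an annotated locus, had 21.0 ± 2.38 CPM in cyrbia and 22.9 ± 4.74 in demophoon at 50%, and 11.7 ± 2.39 and 10.8 ± 1.86 at 70% in the main wing. It fell with stage in cyrbia (log2 fold change -0.84 ± 0.20, FDR = 0.00636) and in demophoon (-1.08 ± 0.20, FDR = 0.00103), and the subspecies differed by -0.12 ± 0.20 at 50% (FDR = 0.782) and 0.12 ± 0.20 at 70% (FDR = 0.787). In the anterior hindwing the fall in demophoon did not pass the test. MSTRG.21986, also annotated, stayed between 1.28 and 4.45 CPM in every library, and its subspecies FDRs were 0.738 and 0.713.

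MSTRG.21987 had lower means in cyrbia at both stages, 7.72 ± 1.54 against 10.4 ± 1.15 CPM at 50% and 3.97 ± 0.898 against 6.84 ± 1.72 at 70%, with FDRs of 0.301 and 0.0583. It fell with stage in cyrbia (log2 fold change -0.95 ± 0.24, FDR = 0.00891). That fall was not called in the anterior hindwing. MSTRG.21988 was called for its fall with stage in demophoon (-0.59 ± 0.16, FDR = 0.0122), also not called in the anterior hindwing. At 70% its subspecies difference was 0.53 ± 0.16 (FDR = 0.0502), just outside the threshold and opposite in sign to that of MSTRG.21985. On the lower side, MSTRG.21982 and MSTRG.21983 reached at most 0.424 and 0.252 CPM in any library.

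Over the other members, the share called between subspecies was close to that of the whole table. At 50% in the main wing, 12 of 130 tested members (9.23%) differed, where 9.69% of all tested loci did, and 4 were higher and 8 lower in cyrbia (4.33 and 5.36% over all tested loci). At 70%, 15 of 130 (11.5%) differed, where 9.17% of all tested loci did, and 5 were higher and 10 lower (3.25 and 5.92% over all tested loci). In the anterior hindwing 18 of 140 (12.9%) were called at each stage, beside 11.4% of all tested loci at 50% and 9.64% at 70%. At 50% these were 3 higher and 15 lower members (4.76 and 6.61% over all tested loci), and at 70% 6 higher and 12 lower (3.46 and 6.18%). Without animal 10 or animal 14 the main wing count at 70% was 9, with sex as a covariate it was 8, and without animal 10 that of the anterior hindwing at 70% was 11. Median log2 fold changes of the members were -0.06 and -0.04 in the main wing at 50 and 70%, with 0.08 and 0.00 over all tested loci. Of the 65 tested members numbered below MSTRG.21985, 6 were called at 50% and 8 at 70%, and of the 65 above it, 6 and 7.

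Calls between subspecies lay mostly on unannotated loci. These were, in the main wing, 10 of 58 unannotated against 2 of 72 annotated members at 50%, and 12 of 58 against 3 of 72 at 70%. Over all tested loci, 15.5% of unannotated and 5.76% of annotated loci were called at 50%, and 13.8 and 6.06% at 70%. The median absolute log2 fold change of unannotated members was 1.01 at 50% and 0.82 at 70%, and that of annotated members 0.30 and 0.34. Called members seldom stood side by side. No neighbouring members were called in the same direction at 50%, and 1 pair was at 70%, MSTRG.21925 with MSTRG.21926. Neighbouring calls were not counted over the whole table, so this does not set the stretch apart from others. At each stage reads of both subspecies had been aligned to a single reference, and whether sequence differences between the subspecies moved these counts was not tested.

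**Figure D2:**
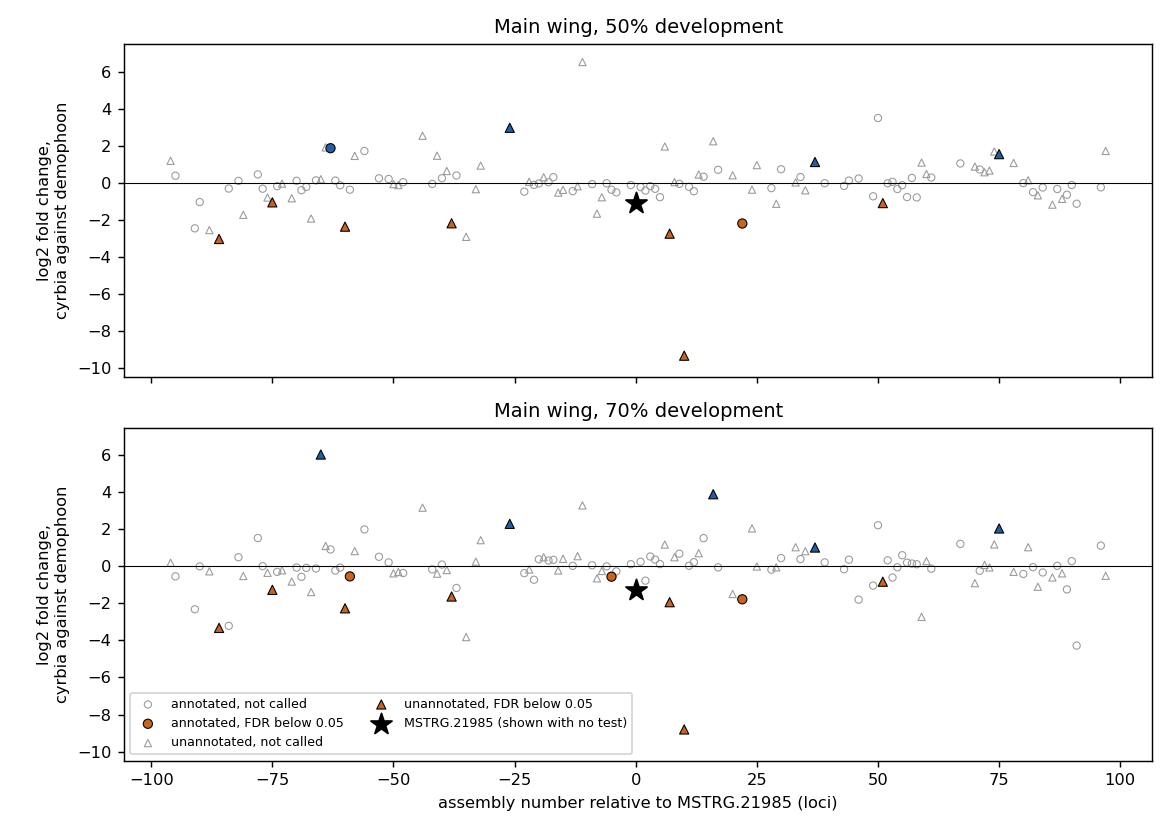
Log2 fold change of cyrbia against demophoon in the main wing (vertical axis) for each tested member in number order, as the number of loci from MSTRG.21985 (horizontal axis), at 50% (upper) and 70% (lower). Circles are annotated and triangles unannotated loci, and filled points have an FDR below 0.05, blue where cyrbia was higher and orange where it was lower. The 12 and 15 calls are scattered on both sides of MSTRG.21985 (star), and most are triangles.

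Many calls were shared between the stages. Main wing calls at both stages were 11 of 130 members (8.46%), where 4.24% of all tested loci were called at both with the same sign, and 3 were higher and 8 lower in cyrbia each time. They were 91.7% of the members' calls at 50% and 73.3% of those at 70%, and over all tested loci these shares were 43.8 and 46.3%. The 2 contrasts use different animals. Whether the members differ from other loci in this was not tested. In all, 9 members were called in all 4 subspecies contrasts (2 stages and 2 wing regions), of which 8 were unannotated. That is 7.09% of the 127 tested in all 4, where 3.35% of all tested loci were. The contrasts of the 2 wing regions at a stage use the same animals and are not independent. At least 1 contrast called 25 of 143 members (17.5%), where it called 19.8% of all tested loci. A test of the difference between the stages, the interaction, called 0 of 130 members by edgeR (lowest FDR 0.279, 5 members with an unadjusted p under 0.05, 1 called by DESeq2), beside 0.0517% of all tested loci.

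In number order, the first of these loci was MSTRG.21899, unannotated and lower in cyrbia. Main wing levels were 0.358 ± 0.288 CPM in cyrbia against 2.95 ± 0.906 in demophoon at 50% (log2 fold change -3.03 ± 0.76, FDR = 0.0209) and 0.252 ± 0.191 against 2.44 ± 1.61 at 70% (-3.32 ± 0.78, FDR = 0.0161). Within demophoon, the single male of each stage was lowest, with 1.71 CPM at 50% and 0.548 CPM at 70%. The main wing calls ended with sex as a covariate, at 50% also without animal 1, 2 or 5 and at 70% without animal 10. The anterior hindwing calls remained in each of these settings.

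MSTRG.21910, unannotated and 75 numbers before MSTRG.21985, was called in all 4 contrasts. In the main wing at 50% it had 6.66, 7.61, 6.79 and 5.33 CPM in cyrbia and 15.3, 14.3, 14.1 and 11.6 CPM in demophoon. At 70% it had 6.64, 9.48, 7.82 and 8.57 CPM in cyrbia and 20.7, 22.6, 15.4 and 20.1 CPM in demophoon. The subspecies did not overlap, with log2 fold changes of -1.05 ± 0.18 (FDR = 0.00221) and -1.27 ± 0.18 (FDR = 0.000652). No setting tried ended a subspecies call of this locus. Its rise with stage in demophoon (0.52 ± 0.18, FDR = 0.0372) was no longer called when any of 10 animals was left out.

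The ratio of its counts to those of MSTRG.21985 also varied least among the members compared, a likeness chosen after the values were seen. Locus lengths are not known, so the spread of this ratio is read and not its size. The ratio of the counts of MSTRG.21910 to those of MSTRG.21985 had a median of 1.05 over the 32 libraries and ranged from 0.620 to 1.69, with medians of 1.02 in cyrbia and 1.08 in demophoon. The SD of its log2 was 0.371, the smallest of 87 members compared, and the next was that of MSTRG.21981 at 0.558. By contrast, the ratio of the adjacent MSTRG.21984 to MSTRG.21985 ran from 0.318 to 6.32. Libraries share subspecies and stage here, so that this is a description without a test.

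Next in order came a pair of loci with opposite signs of the subspecies difference. MSTRG.21922, annotated, was higher in cyrbia at 50%, with 9.98 ± 2.56 against 2.73 ± 0.960 CPM in the main wing (log2 fold change 1.87 ± 0.45, FDR = 0.0169), a call that ended without animal 6 or animal 8. At 70% it was not called. There 1 demophoon animal, number 16, had 15.0 CPM and the others 4.58 to 4.93. MSTRG.21925, unannotated, was lower in cyrbia in all 4 contrasts. In the main wing it had 1.03, 0.710, 2.22 and 0.822 CPM in cyrbia and 6.54, 6.67, 5.62 and 6.07 CPM in demophoon at 50%. At 70% it had 1.28, 1.01, 1.77 and 1.14 CPM in cyrbia and 6.21, 5.26, 7.36 and 6.36 CPM in demophoon. All cyrbia animals were below all demophoon animals (log2 fold change -2.37 ± 0.35, FDR = 0.000976, and -2.26 ± 0.35, FDR = 0.00130), and every setting tried kept the 4 calls.

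MSTRG.21920, unannotated and shortly before MSTRG.21922, was called at 70% on the strength of a single animal. In the main wing at 70% animal 10 of cyrbia had 230 CPM, while the other 3 had 0.302, 0.854 and 1.54 CPM and the 4 demophoon animals 0.142 to 1.38 CPM. The anterior hindwing of the same animal had 233 CPM. Fitted log2 fold changes were 6.04 ± 1.65 against demophoon (FDR = 0.0331) and 6.44 ± 1.68 between stages in cyrbia (FDR = 0.0103). Without animal 10 they were 0.04 and 0.44, and neither was called. In every other library of the series the locus had at most 1.54 CPM.

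MSTRG.21947, unannotated, was lower in cyrbia in all 4 contrasts. At 50% in the main wing cyrbia had 2.98, 1.76, 3.76 and 2.68 CPM and demophoon 14.6, 17.3, 7.15 and 12.1 CPM, and at 70% cyrbia had 2.26, 2.51, 1.39 and 1.94 CPM and demophoon 3.87, 7.06, 8.47 and 5.76 CPM. The groups did not overlap (log2 fold change -2.18 ± 0.34, FDR = 0.00133, and -1.63 ± 0.34, FDR = 0.00800). In the anterior hindwing the differences were -2.42 ± 0.27 and -2.11 ± 0.27, and every setting tried kept these calls. The locus also fell with stage in demophoon (-1.02 ± 0.33, FDR = 0.0301), a call that ended when any of 6 animals (5, 6, 8, 13, 14 or 16) was left out.

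MSTRG.21959, unannotated, went the other way. Main wing levels were 1.22 ± 0.656 CPM in cyrbia against 0.158 ± 0.0728 in demophoon at 50% (log2 fold change 2.97 ± 0.69, FDR = 0.0141) and 1.24 ± 0.464 against 0.254 ± 0.190 at 70% (2.30 ± 0.66, FDR = 0.0399). The main wing call at 50% was kept in every alternative fit of those libraries, but the anterior hindwing gave no call at 50% (2.46 ± 0.78, FDR = 0.0535). Its call in the anterior hindwing at 70% (2.58 ± 0.78, FDR = 0.0496) ended when any of 13 animals was left out, all but 8, 9 and 16. The main wing call at 70% ended when any of 8 animals (5, 7 or 10 to 15) was left out, without the filter, and in a fit of the 8 libraries of the stage.

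Just beyond MSTRG.21985 came a pair of unannotated loci lower in cyrbia. MSTRG.21992 had 0.428 ± 0.274 CPM in cyrbia against 2.92 ± 0.916 in demophoon at 50% in the main wing (log2 fold change -2.74 ± 0.60, FDR = 0.0103), which every setting kept. At 70% the values were 1.10 ± 0.20 and 4.22 ± 3.16 CPM (-1.93 ± 0.58, FDR = 0.0479), with demophoon animals at 1.88, 7.63, 6.16 and 1.21 CPM. That call ended when any of 13 animals was left out (all but 1, 13 and 16), and the groups overlapped. The call also ended with size factors by relative log expression, without the filter and with sex as a covariate. A fit of the 8 libraries of the stage ended it too. In the anterior hindwing MSTRG.21992 was called at both stages in every setting, with -3.15 ± 0.48 (FDR = 0.000968) and -2.49 ± 0.47 (FDR = 0.00421).

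MSTRG.21995 was the member with the most complete difference. All 16 cyrbia libraries had a count of 0, and all 16 demophoon libraries had counts, from 0.962 to 2.67 CPM. At 50% in the main wing the demophoon animals had 2.60, 2.05, 2.62 and 2.20 CPM, and at 70% 1.12, 0.962, 2.18 and 2.28 CPM. Against a floor of 3 counts per library in cyrbia, the demophoon mean was at least 27.6-fold higher in the main wing and at least 30.2-fold higher in the anterior hindwing at 50%, and at least 13.4-fold and 14.2-fold higher at 70%. The FDR was between 0.000182 and 0.000652 in the 4 contrasts. With a count of 0 throughout cyrbia, the locus passed the filter on low counts through demophoon alone. It was also assembled from these same reads, so the FDRs add no support to the difference. The floor covers counting error alone.

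Among loci further on, MSTRG.22001, unannotated, had 1.63 ± 1.32 CPM in cyrbia and 0.111 ± 0.0643 in demophoon at 70% in the main wing (log2 fold change 3.90 ± 0.87, FDR = 0.0120). Its 4 cyrbia animals had 0.452, 2.18, 0.664 and 3.24 CPM, and its 4 demophoon animals 0.204 CPM or less. At 50% it was not called. MSTRG.22007 was the only annotated member called in all 4 subspecies contrasts. Cyrbia had 1.16, 0.454, 0.233 and 1.43 CPM and demophoon 4.18, 4.21, 3.00 and 3.65 CPM at 50% in the main wing. At 70% cyrbia had 9.80, 8.40, 7.21 and 22.8 CPM and demophoon 36.8, 75.9, 24.2 and 29.8 CPM. Demophoon was above cyrbia in each stage without overlap, while both rose with stage. The difference was -2.20 ± 0.54 at 50% (FDR = 0.0187), which ended without animal 2 and in a fit of the 8 libraries of that stage. It was -1.78 ± 0.50 at 70% (FDR = 0.0391), which ended in the fit of 8 libraries, with sex as a covariate and when any of 7 animals (5, 8, 9, 10, 11, 13 or 14) was left out.

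MSTRG.22022, unannotated, was higher in cyrbia in the main wing. At 50% cyrbia had 10.0, 9.34, 6.21 and 10.2 CPM and demophoon 4.55, 2.87, 4.77 and 4.22 CPM. At 70% cyrbia had 20.9, 25.9, 22.9 and 29.6 CPM and demophoon 9.92, 15.9, 14.1 and 9.35 CPM. The groups did not overlap (log2 fold change 1.13 ± 0.23, FDR = 0.00689, and 1.02 ± 0.23, FDR = 0.0116), and the call at 70% ended with sex as a covariate. In the anterior hindwing it was called at neither stage.

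MSTRG.22036, unannotated, was lower in cyrbia in all 4 contrasts and in every setting tried. At 50% in the main wing cyrbia had 16.5, 16.8, 18.6 and 15.3 CPM and demophoon 40.0, 38.2, 37.3 and 29.1 CPM. At 70% cyrbia had 11.6, 13.3, 12.2 and 12.8 CPM and demophoon 19.1, 24.3, 19.6 and 26.1 CPM. The subspecies did not overlap (log2 fold change -1.09 ± 0.15, FDR = 0.000449, and -0.83 ± 0.15, FDR = 0.00311). It fell with stage in demophoon (-0.69 ± 0.15, FDR = 0.00222). Its fall in cyrbia (-0.42 ± 0.15, FDR = 0.0428) was no longer called when any of 12 animals was left out, nor under the other settings.

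The last of the shared calls was MSTRG.22060, unannotated and higher in cyrbia. At 50% in the main wing cyrbia had 15.0, 15.8, 16.1 and 10.4 CPM and demophoon 3.96, 4.41, 3.68 and 7.62 CPM (log2 fold change 1.55 ± 0.44, FDR = 0.0377). At 70% cyrbia had 15.8, 19.3, 11.8 and 15.9 CPM and demophoon 3.10, 3.43, 7.70 and 0.996 CPM (2.05 ± 0.44, FDR = 0.0101). The highest demophoon animal was the single male at each stage, with 7.62 and 7.70 CPM, and it stayed below every cyrbia animal. With sex as a covariate the call at 70% ended, and the call at 50% ended when any of 6 animals (1, 2, 3, 5, 6 or 7) was left out. Beside this, the part of sex in the differences at 70% was not tested apart from the covariate, since no cyrbia female was sampled there.

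**Figure D3:**
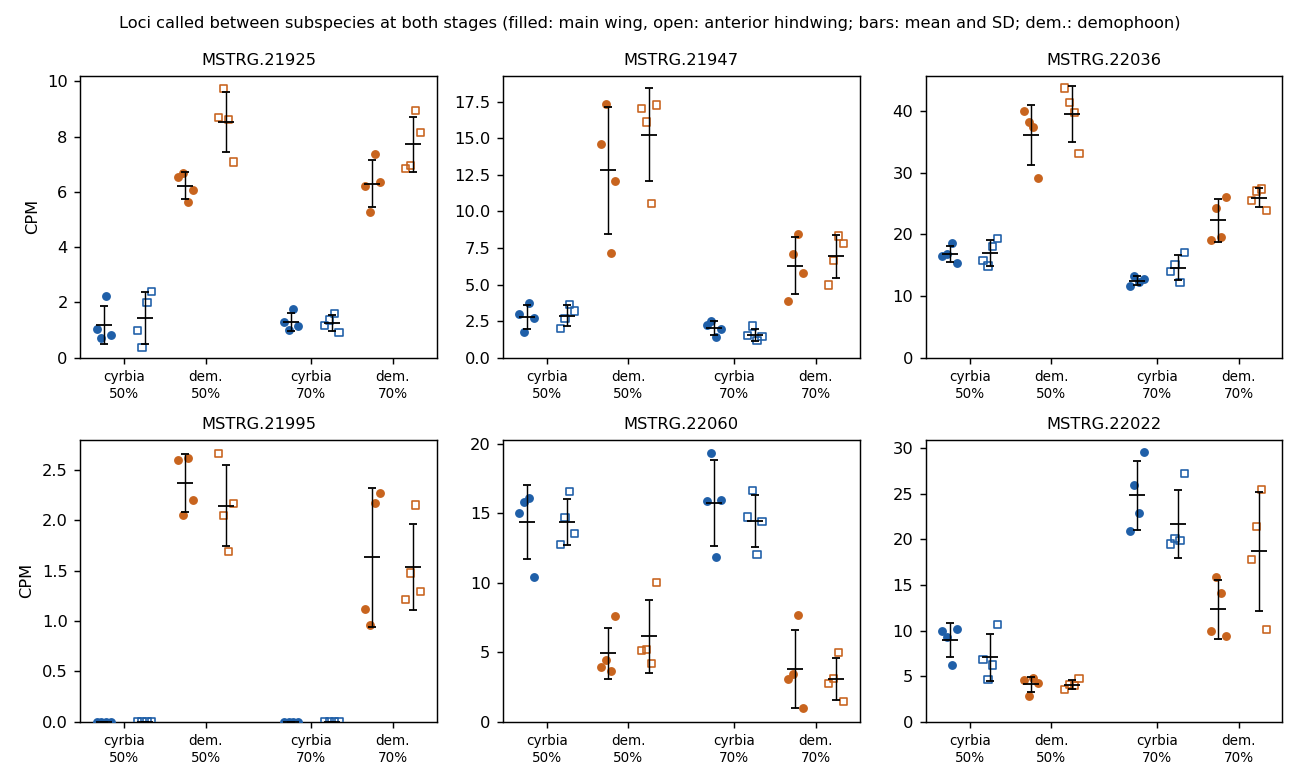
CPM (vertical axes) of 6 members called between the subspecies at both stages in the main wing, in each library by subspecies and stage (horizontal axes). Filled points are main wing, open squares anterior hindwing, bars the mean ± SD of 4 animals. MSTRG.21995 lies at 0 in all cyrbia libraries, and the main wing points of cyrbia and demophoon do not overlap at either stage in any panel.

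A pair of annotated loci beside these were lower in cyrbia by less. MSTRG.21926 had 14.7 ± 1.23 CPM in cyrbia and 21.5 ± 2.01 in demophoon at 70% in the main wing (log2 fold change -0.54 ± 0.14, FDR = 0.0226). MSTRG.21980 had 27.3 ± 2.53 and 40.4 ± 5.60 CPM (-0.56 ± 0.14, FDR = 0.0218). Both are named because they complete the 3 annotated calls at 70%, and were chosen after their values were seen. In bulk tissue, fewer cells of a type and less RNA per cell cannot be told apart in any of these differences.

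Stage moved more members than subspecies did, at shares close to those of the whole table. In the main wing of cyrbia 37 of 131 tested members (28.2%) differed between 50% and 70%, 14 higher and 23 lower at 70%, where 26.1% of all tested loci did. In demophoon 38 of 131 (29.0%) did, 12 higher and 26 lower, where 28.1% of all tested loci did. Falls outnumbered rises, and over all tested loci 13.7% fell and 12.3% rose in cyrbia and 13.1% fell and 15.0% rose in demophoon. The median log2 fold change of the members was -0.21 in cyrbia and -0.22 in demophoon, and -0.02 and 0.05 over all tested loci. Without animal 10 the count in cyrbia was 24, and without animal 14 or animal 8 that in demophoon was 24 or 25.

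Here the calls lay mostly on annotated loci. They were 27 of 72 annotated and 10 of 59 unannotated members in cyrbia, and 29 of 72 and 9 of 59 in demophoon. Over all tested loci 34.3% of annotated and 14.0% of unannotated loci were called in cyrbia, and 36.8 and 15.1% in demophoon. In both subspecies 25 members were called, 8 rising and 17 falling and each with the same sign in both, beside 18.1% of all tested loci, where the 25 are 19.1% of the members. They are 67.6% of the members' calls in cyrbia and 65.8% of those in demophoon, and over all tested loci these shares were 69.4 and 64.4%. Of the 50 members called for stage in at least 1 subspecies, 9 were also called between subspecies. How many of all tested loci were called for both was not counted. Neighbours in the same direction made 4 runs in cyrbia and 5 in demophoon, and the longest held 3 loci, MSTRG.22013 to MSTRG.22015 in cyrbia. Such runs were not counted over the whole table either.

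**Figure D4:**
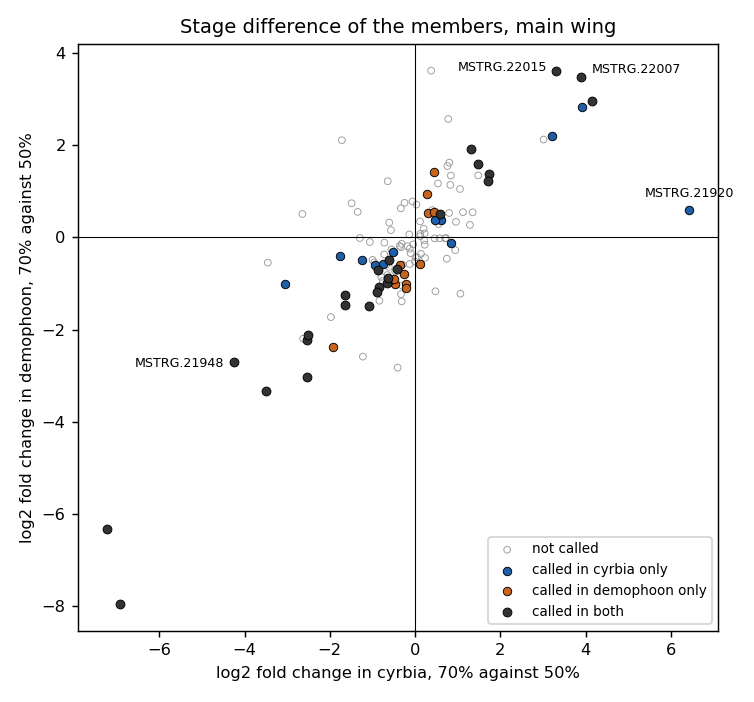
Log2 fold change of 70% against 50% in the main wing of cyrbia (horizontal axis) and demophoon (vertical axis) for each tested member. Filled points have an FDR below 0.05 in both subspecies (dark) or in 1 (blue for cyrbia, orange for demophoon). The 25 members called in both lie in the lower left (17) and upper right (8), and MSTRG.21920, which rests on animal 10, lies apart at 6.44 in cyrbia.

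The rise with the lowest FDR in both subspecies was that of MSTRG.22015, an annotated locus and the member with the most counts. In the main wing of cyrbia it had 460, 815, 324 and 644 CPM at 50% and 5678, 4552, 4521 and 7475 CPM at 70%. In demophoon it had 333, 294, 377 and 357 CPM at 50% and 3189, 5182, 3933 and 4104 CPM at 70%. Every library at 70% was above every library at 50%, with log2 fold changes of 3.31 ± 0.29 in cyrbia (FDR = 1.09e-06) and 3.60 ± 0.30 in demophoon (FDR = 5.26e-07). Every setting tried kept both calls.

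MSTRG.22007, described above for its subspecies difference, rose by 3.90 ± 0.56 in cyrbia (FDR = 0.000113) and 3.48 ± 0.54 in demophoon (FDR = 0.000205). MSTRG.21999, annotated, rose from 0.452 ± 0.216 to 8.00 ± 9.46 CPM in cyrbia (4.15 ± 1.01, FDR = 0.00648), where animal 9 had 22.0 CPM and the others 1.36 to 4.66, and without animal 9 the rise was 2.88 and still called. MSTRG.22022 rose in both subspecies (1.48 ± 0.23, FDR = 0.000203, and 1.59 ± 0.23, FDR = 0.000110). MSTRG.22019, annotated and second in counts only to MSTRG.22015, rose by 0.59 ± 0.16 in cyrbia (FDR = 0.0135) and 0.51 ± 0.16 in demophoon (FDR = 0.0274), and the call in demophoon ended when any of 5 animals (6, 7, 8, 15 or 16) was left out. The third by counts, MSTRG.22029, was not called for stage, with means from 455 to 628 CPM in the main wing groups.

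Among the falls, MSTRG.21916, annotated, went from 7.04, 3.75, 5.23 and 9.04 CPM at 50% to 0.528, 0.130, 0.570 and 0.937 CPM at 70% in cyrbia. In demophoon it went from 9.29, 7.19, 6.83 and 9.98 to 0.865, 0.224, 0.755 and 1.42 CPM. The stages did not overlap in either subspecies (log2 fold change -3.50 ± 0.57, FDR = 0.000333, and -3.34 ± 0.56, FDR = 0.000391), and every setting kept both calls.

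MSTRG.21948, annotated, varied widely between animals at 50% and was low at 70%. In cyrbia animals 1 and 2 had 87.5 and 90.3 CPM in the main wing and animals 3 and 4 had 2.52 and 7.04, and at 70% the range was 1.05 to 3.70 CPM (log2 fold change -4.26 ± 1.00, FDR = 0.00517). In demophoon it ranged from 13.2 to 82.5 CPM at 50% and from 3.46 to 10.1 CPM at 70% (-2.70 ± 0.92, FDR = 0.0401), a call that ended with no filter, with sex as a covariate and when any of 5 animals (7, 8, 13, 14 or 15) was left out. The same animals were high in both wing regions at 50%. In all 8 animals at that stage the anterior hindwing had more than the main wing, by a main to anterior ratio of 0.289 to 0.599, but this was not called in either subspecies (FDR = 0.284 in cyrbia and 0.197 in demophoon).

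MSTRG.21950, unannotated and 2 numbers on, had 3.01, 3.18, 3.65 and 6.61 CPM in demophoon at 50% in the main wing, and 0 in 3 animals and 0.148 CPM in the other at 70% (log2 fold change -6.31 ± 1.78, FDR = 0.0190). That call ended without animal 13 or 14. In cyrbia it was at 0 in all 8 libraries at 70%. At 50% animal 1 of cyrbia had 2.00 CPM in the main wing and 8.49 CPM in the anterior hindwing, and the other 3 animals had 0 to 0.330 CPM. Its call in cyrbia (-7.22 ± 2.33, FDR = 0.0382) ended without animal 1, and when any of 9 others was left out. A fitted change against a group at 0 is set by the prior count and is no bound.

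Between wing regions 1 member was called. The contrasts within animals called 1 of 159 members in cyrbia at 50%, 1 in cyrbia at 70% and 1 in demophoon at 70%, each time MSTRG.22042, beside 0.186, 0.252 and 0.367% of all tested loci. In demophoon at 50%, where 0.0985% of all tested loci were called, edgeR called 0 members (lowest FDR 0.0601, that of MSTRG.22042, with 11 members at an unadjusted p under 0.05 and 2 called by DESeq2). MSTRG.22042 is an annotated locus whose level was higher in the main wing than in the anterior hindwing in 16 of 16 animals, by 1.37 to 3.86 times with a median of 2.39.

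In cyrbia at 50% MSTRG.22042 had 9.89, 7.44, 8.47 and 13.6 CPM in the main wing and 5.52, 2.84, 3.04 and 3.52 CPM in the anterior hindwing of the same animals. In cyrbia at 70% it had 4.98, 9.25, 8.07 and 8.90 CPM against 3.35, 3.46, 3.38 and 3.05. In demophoon at 70% it had 6.62, 9.14, 7.30 and 5.23 CPM against 2.70, 3.93, 1.99 and 2.39. The regions did not overlap in any of these groups. Log2 fold changes of main wing against anterior hindwing were 1.41 ± 0.21 (FDR = 0.0122), 1.21 ± 0.21 (FDR = 0.0173) and 1.37 ± 0.21 (FDR = 0.00682), and 1.04 ± 0.21 in demophoon at 50% (FDR = 0.0601). Without the animal as a block no group was called. The call in cyrbia at 70% also ended without animal 10, 11 or 12 and that in demophoon at 70% without animal 15. Neither subspecies nor stage differed at this locus in the main wing, with FDRs from 0.420 to 0.794.

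**Figure D5:**
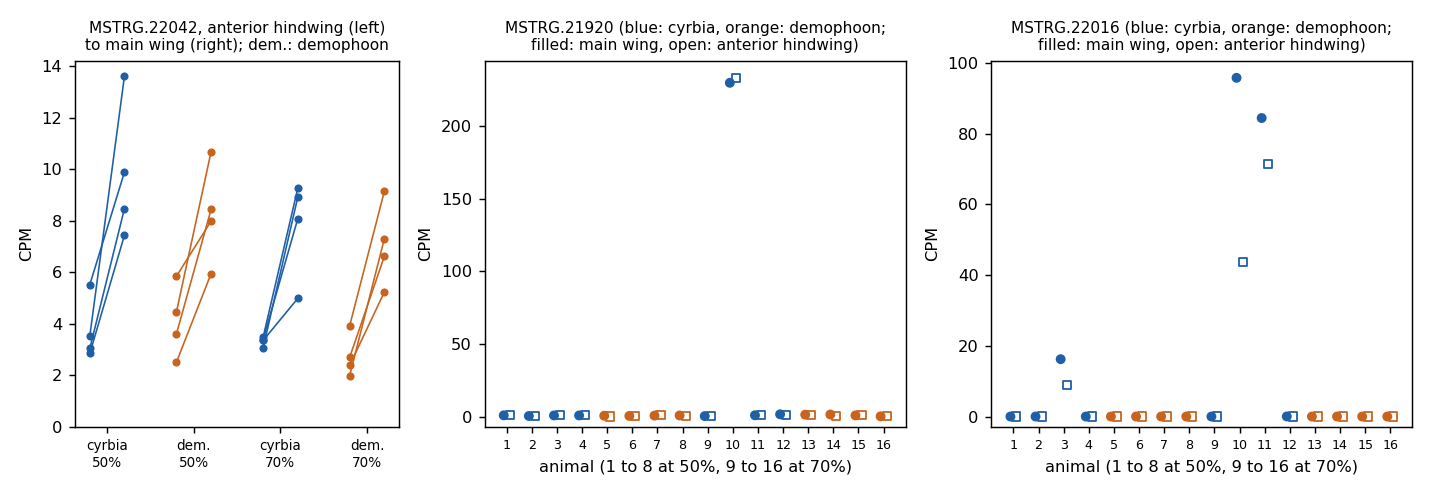
Left, CPM of MSTRG.22042 in the anterior hindwing and main wing, with a line for each animal, by subspecies and stage. Centre and right, CPM of MSTRG.21920 and MSTRG.22016 in both libraries of each animal, with animal numbers on the horizontal axis. All 16 lines rise, animal 10 alone is above 1.54 CPM for MSTRG.21920, and cyrbia animals 3, 10 and 11 alone are above 0.0223 CPM for MSTRG.22016.

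Some members were on in 1 animal and off in another of the same subspecies and stage. Taking at least 1 CPM in both libraries of an animal as on and a count of 0 in both as off, 13 of the 201 members (6.47%) had animals of both kinds within a group, 11 of them unannotated, and so had 5.79% of all loci in the table. The clearest was MSTRG.22016, unannotated and next in number to the abundant MSTRG.22015. All 16 demophoon libraries had a count of 0. In cyrbia it had counts in 7 of 16 libraries, with 95.8 and 43.8 CPM in the main wing and anterior hindwing of animal 10, 84.4 and 71.4 CPM in animal 11 and 16.2 and 8.96 CPM in animal 3. Animal 12 had 0.0223 CPM in its main wing alone, and the other 4 cyrbia animals were at 0. In its neighbour MSTRG.22015, animals 10 and 11 had the lowest levels of the 4 cyrbia animals at 70% (4552 and 4521 CPM in the main wing, against 5678 and 7475), and animal 3 the lowest at 50% (324 CPM, against 460 to 815). Whether the levels of the adjacent loci are linked was not tested.

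A second such locus, MSTRG.22003, was on in cyrbia animals 3 and 4 at 50%, with 12.3 and 19.6 CPM in the main wing and 10.4 and 10.9 CPM in the anterior hindwing. It was off in animal 1, and at 0 in all 8 cyrbia libraries at 70%. MSTRG.21940 was on in demophoon animal 16 at 70%, with 9.00 to 9.76 CPM, and off in animals 13 and 15. These loci were chosen after their values were seen. Conversely, 5 members had, in 6 member and animal pairs, a count of 0 in 1 library of an animal and at least 50 in the other, such as MSTRG.22033 in demophoon animal 6 with 317 counts in the anterior hindwing and 0 in the main wing.

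No member was called between males and females. With subspecies and stage held constant in the main wing fit, edgeR called 0 of 131 members (lowest FDR 1.00, 9 members at an unadjusted p under 0.05, 1 called by DESeq2), beside 0.0129% of all tested loci. The median log2 fold change of males against females was 0.08 over the 131 members, with 74 above 0. It was 0.15 over the 248 other annotated Z loci tested, with 172 above 0, and 0.01 over all tested loci. In the anterior hindwing the median over 141 members was 0.09.

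The level of the neighbourhood as a whole was taken in each animal as the median log2 level of 40 abundant annotated members relative to that of 5045 abundant annotated loci on other chromosomes. In cyrbia at 50% it was 0.11 and 0.04 in the 2 males and 0.00 and -0.15 in the 2 females in the main wing. In demophoon the male had 0.17 and the females 0.02 to 0.11 at 50%, and the male -0.21 and the females -0.19 to 0.00 at 70%. At 70% the 4 cyrbia males ran from -0.33 to -0.16. In these main wing libraries males were above the females of their subspecies at 50%, and the demophoon male was below its females at 70%. The anterior hindwing did not give this order. There the demophoon male had 0.12 and the females -0.01, 0.07 and 0.20 at 50%, and the male had -0.17 and the females -0.24, -0.14 and 0.03 at 70%. The sex labels carry a limit. MSTRG.14928, a locus outside the stretch, had 814 to 5909 counts in the 12 demophoon female libraries and at most 6 in males, but 0 in all 4 libraries labelled as cyrbia females.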

How the data were processed

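Per the submitters' processing notes, the authors used Trimmomatic (v. 0.38) for trimming, HISAT2 (v. 2.1.0) for alignment, SAMtools (v. 1.9), and StringTie (v. 1.3.5) for assembly. For the genome build and the use of strand, nothing is given in the sources used here. Values deposited by the authors were raw counts, not normalised, as whole numbers for 24118 loci in 32 libraries. StringTie estimates such counts from coverage, and reads of adjacent or overlapping loci may be divided differently in each library. Of these loci, 1784 carry a gene model ID without an assembly number. Between those of members lay 33 such gene models, 19 with any count, and were left out by the rule.

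Differential expression was tested over all loci with edgeR (v. 4.0.16, R v. 4.3.3, limma v. 3.58.1), using TMM normalisation, filterByExpr, robust quasi-likelihood F tests and Benjamini-Hochberg FDRs. Subspecies and stages were compared in group means of the 16 main wing libraries and in a separate fit of the 16 anterior hindwing libraries, sex in the main wing with group as a covariate, and regions over the 32 libraries with animals as blocks. The labels give the animal of each library. Over 18276 loci, deviations of the 2 libraries of an animal correlated at 0.475 to 0.761, and the animal was kept as the block. SEs were taken from the fold change and its F value. The separate animals are the replicates. Scripts were tested on simulated counts.

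Alternatives were size factors by relative log expression (RLE), no filter, DESeq2 (v. 1.42.0), sex as a covariate, the 8 libraries of a stage alone, the anterior hindwing for the stage, interaction and sex contrasts, no block for the regions, and leaving out each animal. Members and lists were chosen with earlier results of these data known. Named were MSTRG.21985 and the 3 loci on each side, up to 10 members called between subspecies at both stages, up to 4 per direction and stage by fold among calls with at least 1 CPM, up to 2 per direction and subspecies for stage, up to 3 per region, sex or interaction contrast, the 3 highest members, and up to 4 members with a count of 0 in every library of 1 subspecies and a mean of at least 1 CPM in the other. The number of IDs found among the 14137 genes of another assembly (Hedem_Duke_1.1) was 0, and no sequence was used. No column was left unassigned.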

Additional observations from a re-analysis of the deposited data

Results flagged for a closer look

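Of 190 groups of 4 animals checked over the named loci, 19 held an animal far from the other 3 (a gap to the nearest above Dixon's critical value for 4). The critical value is set for about 1 in 20 groups of independent, normally distributed values. The groups here hold skewed CPM values and both libraries of the same animals, at loci named after their values were seen. That rate is therefore no benchmark for the 19.

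Animals 10, 16, 3 and 1 stood apart in both of their libraries. MSTRG.21920 was at 229.7 CPM (main wing) and 233.1 CPM (anterior hindwing) in cyrbia animal 10, with the others of each group at 1.54 or less. MSTRG.21922 was at 15.04 and 14.60 CPM in demophoon animal 16 at 70%. MSTRG.22016 was at 16.22 and 8.957 CPM in cyrbia animal 3 at 50%, with the others at 0. MSTRG.21950 was at 2.004 and 8.487 CPM in cyrbia animal 1 at 50%.

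Further high values stood in single libraries. MSTRG.21948 was at 176.6 CPM in demophoon animal 8 (50%, anterior hindwing) and 10.13 CPM in animal 16 (70%, main wing). MSTRG.21984 was at 25.98 CPM in demophoon animal 8 (50%, anterior hindwing). MSTRG.21999 was at 22.02 CPM in cyrbia animal 9 (70%, main wing). MSTRG.22007 was at 22.83 CPM in cyrbia animal 12 (70%, main wing) and 98.28 CPM in demophoon animal 14 (70%, anterior hindwing). MSTRG.22015 was at 3929 CPM in demophoon animal 16 (70%, anterior hindwing), with the others at 3430 to 3464. MSTRG.22022 was at 27.27 CPM in cyrbia animal 12 (70%, anterior hindwing), with the others at 19.49 to 20.11. The gap is judged against the spread of its group, so a flagged value need not be far in fold.

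Animal 9 of cyrbia at 70% was low at 3 loci. In its anterior hindwing MSTRG.21959 was at 0.2808 CPM (others 1.658 to 1.779) and MSTRG.21984 at 10.11 CPM (others 13.10 to 13.40). MSTRG.21987 was at 2.639 CPM in its main wing (others 4.240 to 4.527).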

How the results depend on the processing

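No named call changed sign in any setting. Of 77 named calls, 43 were kept in every setting, 49 whenever an animal was left out and 51 in all other settings. Among these, the subspecies calls of MSTRG.21910, MSTRG.21925, MSTRG.21947, MSTRG.21995 and MSTRG.22036 were kept throughout. MSTRG.21995 passed the filter on low counts through demophoon alone, so its kept calls add no support.

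With DESeq2, calls between subspecies at 50% rose from 12 to 21 (main wing) and from 18 to 28 (anterior hindwing). DESeq2 also gave 1 call for the interaction and 1 for sex, and 2, 5, 2 and 9 for the regions of cyrbia at 50 and 70% and of demophoon at 50 and 70%. With sex as a covariate, the main wing calls at 70% fell from 15 to 8. RLE gave 2, 1 and 2 region calls in cyrbia at 70%, demophoon at 50% and demophoon at 70%. Without the replicate block (the animal), no member was called between regions in any group: 0 in cyrbia at 50%, 0 in cyrbia at 70% and 0 in demophoon at 70%, against 1 each. The cause was not tested.

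Leaving out each animal in turn, calls between subspecies ranged over 9 to 16 (50%, main wing), 9 to 22 (70%, main wing), 12 to 20 (50%, anterior hindwing) and 11 to 17 (70%, anterior hindwing). Stage calls ranged over 24 to 36 in cyrbia and 24 to 42 in demophoon. Interaction and sex stayed at 0, and region calls ranged over 1 to 1, 0 to 2, 0 to 1 and 0 to 3 in the order above.

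Members below 1 CPM, 104 of 201, are limited by depth. An alternative chosen after seeing the data left out 5 loci. These were at 0 in 1 library of an animal and at 50 counts or more in the other. No count of calls changed. None of the 5 had a call in any contrast, so leaving them out takes no call away. It is thus no test of these counts.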
